A study of Mus musculus with 4 samples.

Results

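In 2 mouse lung models, 285 of 8433 genes differed at least 2-fold, and in the same direction, between CD8+ T cells of mice given a CD4-depleting antibody and CD8+ T cells of mice given an isotype antibody. Of these genes 51 were higher after depletion and 234 were lower. A gene was counted when its log2 ratio of the depleted over the isotype library was at least 1 in both models, or at most -1 in both. Only genes whose mean over the 4 libraries reached 10 CPM (counts-per-million, after TMM scaling) entered, which were 8433 of the 55401 genes in the tables. The genes of both directions together were 3.38% of the genes examined, the higher ones 0.605% and the lower ones 2.77%. Because these ratios chose the genes, the ratios of the chosen genes are a description and carry no test.

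The cells were CD3+CD8+ lung cells of C57BL/6J mice, and the 4 groups were IPF-LC mice with isotype antibody, IPF-LC mice with anti-CD4-depleting antibody, LC mice with isotype antibody and LC mice with anti-CD4-depleting antibody. Neither model name is spelled out in the labels, and the age of the mice, the number behind a library and any pooling are not given in the sources used here. The libraries are also named BLM_CD4, BLM_Control, Saline_CD4 and Saline_Control, so the models go by BLM and Saline as well. Each group held 1 library, so no difference could be set against the spread between animals. The 95% intervals given with ratios cover counting error only, and the reads had no molecular identifiers.

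CD4+ T cells include helper cells and regulatory T cells, which carry the transcription factor FOXP3 and the receptor CTLA-4 and restrain other lymphocytes. Type 17 T cells secrete interleukin-17 cytokines under the nuclear receptors of the ROR family and occur in barrier tissues such as the lung. Both programmes are best known in CD4+ cells, but CD8+ cells can carry either one. A sort of lung lymphocytes can also hold RNA of macrophages, endothelium and fibroblasts, whose defining genes T cells largely lack.

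Library totals lay between 14946579 and 16217677 expected counts, and between 14657 and 16415 genes had a count. Cd8a, a chain of the CD8 coreceptor, lay between 353 and 518 CPM over the 4 libraries, and none of 18 CD8 T cell identity genes was 2-fold apart in either model. Cd4, the gene of the antibody's target, had 73 counts in the IPF-LC isotype library, 0 in the IPF-LC depleted library, 12 in the LC isotype library and 16 in the LC depleted library. It was thus near 0 in the LC libraries with either antibody, and a fall in the LC pair was not detectable at this depth. In such bulk samples, fewer cells of a type and less RNA per cell cannot be told apart.

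Each model alone had more genes past 2-fold than the pair of models shared. In IPF-LC 344 genes (4.08%) were higher after depletion and 508 (6.02%) lower, and in LC 218 (2.59%) were higher and 493 (5.85%) lower. The 51 shared higher genes made up 14.8% of the IPF-LC list and 23.4% of the LC list. The 234 shared lower genes made up 46.1% and 47.5%. The models went opposite ways by that much for 24 genes that were higher in IPF-LC, and for 7 that were higher in LC. Lower genes lay at low levels: they were 7.66% of the 1593 genes between 10 and 20 CPM, 3.32% of the 2587 genes between 20 and 50 CPM and 0.611% of the 4253 genes at 50 CPM or more. For higher genes the same shares were 0.816, 0.696 and 0.470%.

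**Figure D1:**
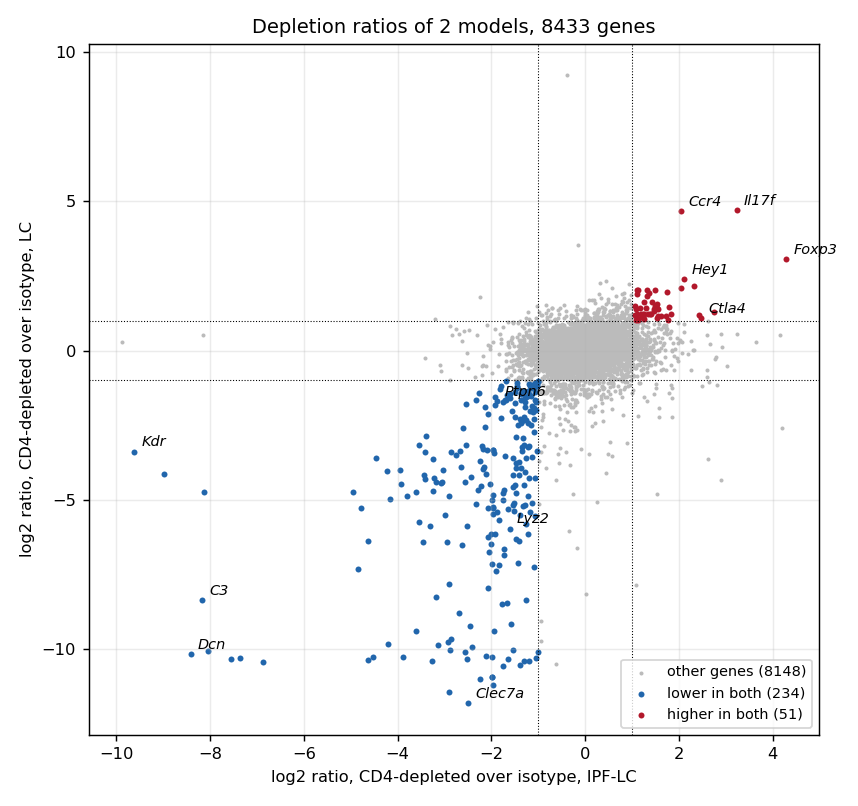
Log2 ratio of CD4-depleted over isotype in IPF-LC (horizontal axis) and LC (vertical axis) for 8433 genes, with dotted lines at 2-fold. Of the coloured points 51 lie beyond both lines on the higher side and 234 on the lower side, where the LC ratios reach further; where a library had 0 counts, the place of the point depends on the prior count of 0.5.

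The design allowed 1 test across libraries, a quasi-likelihood fit in edgeR of model plus antibody, and it called no gene. Of 13045 genes, 0 were higher and 0 lower with depletion at a Benjamini-Hochberg adjusted p under 0.05, the smallest adjusted p being 0.203. At an unadjusted p under 0.05 there were 405 higher and 894 lower genes. On the 8433 genes reaching a mean of 10 CPM, the same model called 39 higher (0.462%) and 95 lower (1.13%). DESeq2 called 100 (0.767%) and 380 (2.91%) of 13045, and limma-voom 0 and 0, so the calls turned on the tool and the filter. The model has 1 residual degree of freedom, which is the interaction of model and antibody.

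The 51 higher genes were mostly moderate in level and in ratio. Their summed level was 1808 CPM in the IPF-LC isotype library, 4665 in the IPF-LC depleted library, 1475 in the LC isotype library and 3934 in the LC depleted library. The median ratio was 1.40 in IPF-LC and 1.39 in LC, 27 genes had the larger ratio in IPF-LC and 24 in LC, and 6 were at least 4-fold higher in both. Those 6 were Il17f, Foxp3, Zdhhc2, Hey1, Ccr4 and Lrig1. The counting interval excluded 0 in both models for all 51 genes and lay wholly beyond 2-fold in both for 29. The same counts chose the genes, so these intervals are no test of them. At least 10 CPM was reached in all 4 libraries by 32 of them, and 12 had counts that were not whole in some library, as RSEM gives where reads are shared (23.5%, against 23.3% of all genes examined).

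**Figure D2:**
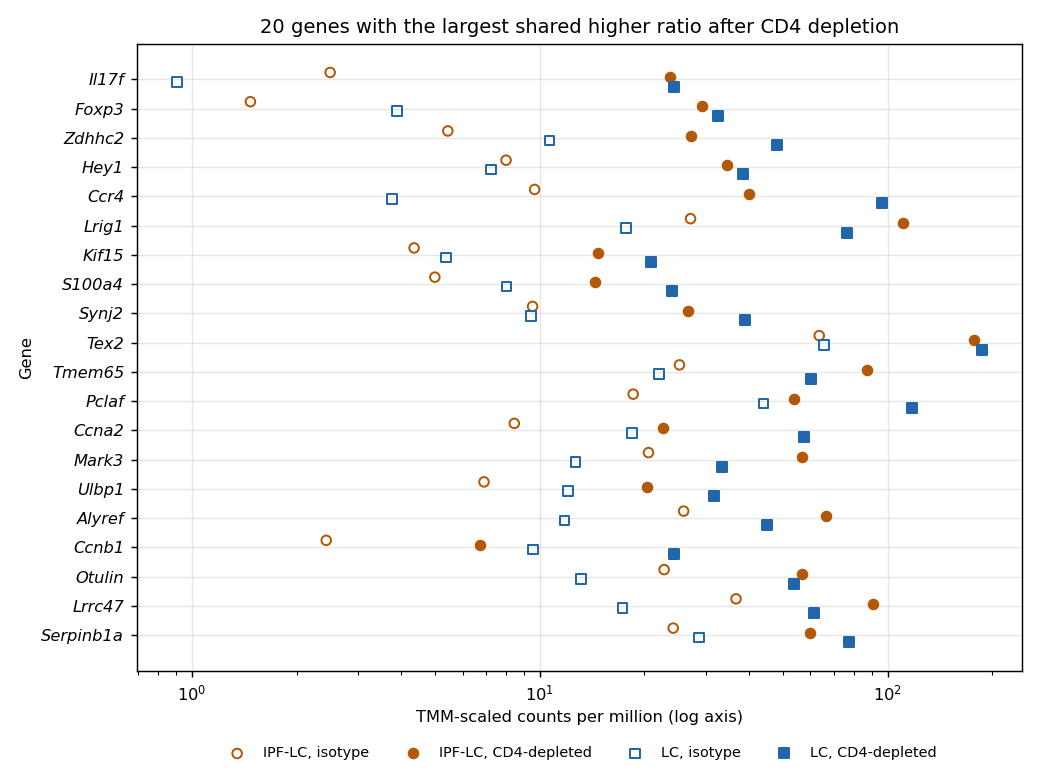
TMM-scaled CPM (log axis) in each of the 4 libraries for the 20 higher genes with the largest value of the smaller of their ratios. In each row the filled depleted symbols lie to the right of the open isotype symbol of the same colour, as the rule requires. Both depleted values exceed both isotype values for each of the genes but Ccnb1. The share of all genes for which this holds was not counted.

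Genes of type 17 T cells were among the highest ratios. Il17f, which encodes a type 17 cytokine, stood at 2.50 CPM in the IPF-LC isotype library, 23.7 in the IPF-LC depleted library, 0.906 in the LC isotype library and 24.3 in the LC depleted library. The depleted libraries were thus nearly level with each other and both isotype libraries low, with log2 ratios of 3.23 (2.77 to 3.76) and 4.70 (3.98 to 5.63). Rora, one of the ROR receptors, was abundant and stood at 96.8 and 255 CPM in IPF-LC and 101 and 237 CPM in LC, isotype first, a ratio of 1.40 (1.31 to 1.49) and 1.22 (1.14 to 1.31). Serpinb1a, a protease inhibitor listed with type 17 cells, went from 24.2 to 59.8 CPM and from 28.7 to 77.7 CPM. For these 3 genes each depleted value exceeded each isotype value. The rule that chose the genes requires this within a model, and the share of all genes without overlap was not counted.

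Type 17 genes below the 10 CPM mean went the same way in 4 further cases. Il17a had 42 counts in the IPF-LC isotype library, 208 in the IPF-LC depleted library, 0 in the LC isotype library and 147 in the LC depleted library, a ratio of 2.30 in IPF-LC and at least 48.3-fold higher in LC by a floor of 3 counts per library. Ccr6, the chemokine receptor of these cells, had 9, 100, 5 and 129 counts in that order, with ratios of 3.41 (2.50 to 4.65) and 4.54 (3.41 to 6.32). Il22 had 0, 11, 0 and 70 counts, at least 3.68-fold and at least 23.0-fold higher. The leukotriene receptor gene Ltb4r1 had 4, 37, 56 and 140 counts. In all, 7 of the 20 measured type 17 genes (those whose mean reached 1 CPM) were higher in both models and 1, Sox13, lower in both, with a median average ratio of 0.93. Over all 12231 genes at that level 1.65% were higher in both and 7.44% lower, 9.09% together, and the median was -0.01. Over the same genes 8.84% were higher and 13.6% lower in IPF-LC, and 5.85% higher and 15.4% lower in LC. Il17re, a receptor chain for an interleukin-17 cytokine in the cytokine receptor list, had 22, 97, 20 and 100 counts. The gamma delta T cell list, another source of interleukin-17 in lung, had 0 of 8 measured genes higher in both, 2 lower and a median of -0.74. Only 9 of its 14 listed names were found, and Sox13, lower in both, is in the type 17 list too.

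Regulatory T cell genes were represented by the defining factor and a checkpoint receptor. Foxp3 stood at 1.47 CPM in the IPF-LC isotype library, 29.3 in the IPF-LC depleted library, 3.88 in the LC isotype library and 32.5 in the LC depleted library. Both depleted libraries were high and at a like level, and the ratios were 4.28 (3.71 to 4.99) and 3.06 (2.68 to 3.48). Ctla4, an inhibitory receptor of regulatory and activated T cells, stood at 39.3, 219, 92.1 and 196 CPM, with ratios of 2.47 and 1.09 (1.00 to 1.18). Itgb8, an integrin chain that activates TGF-beta on regulatory T cells, lay below the 10 CPM mean with 0, 42, 0 and 40 counts, at least 14.0-fold and at least 13.1-fold higher. It was undetected in both isotype libraries and present in both depleted ones.

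The rest of the regulatory list followed in IPF-LC more than in LC. Over all genes reaching a mean of 1 CPM 8.84% were higher and 13.6% lower in IPF-LC, and 5.85% higher and 15.4% lower in LC. In both models 1.65% were higher. Of 19 measured markers 12 were at least 2-fold higher in IPF-LC and 1 lower, against 3 higher and 5 lower in LC, and Foxp3, Ctla4 and Itgb8 were the 3 higher in both. The median ratio was 1.61 in IPF-LC and 0.30 in LC; whether the models differ in this was not tested. Ikzf2, the factor Helios, had ratios of 1.61 and 0.73, Il2ra, the interleukin-2 receptor alpha chain, 1.31 and 0.30, and Entpd1, the enzyme CD39, 1.57 and -2.23. The summed level of the list was 778, 1426, 1133 and 1446 CPM in the same order of libraries, so that the depleted libraries were close to each other and the isotype libraries were not.

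Genes of helper T cells were checked beside these, because the antibody targets CD4. Ccr4, a receptor for the chemokines CCL17 and CCL22, stood at 9.66 CPM in the IPF-LC isotype library, 40.0 in the IPF-LC depleted library, 3.75 in the LC isotype library and 96.3 in the LC depleted library. Its ratios were 2.05 (1.79 to 2.32) and 4.67 (4.30 to 5.09). Il1rl1, the receptor of interleukin-33, had 5, 120, 73 and 227 counts, and Cd40lg, the helper cell ligand of CD40, had 37, 83, 44 and 195. These were the 3 of 12 measured genes of the CD4 and type 2 helper list that were higher in both models, while Pparg was lower in both and the median average ratio was 0.68. The list summed to 196, 314, 234 and 389 CPM. Of all genes reaching a mean of 1 CPM 1.65% were higher in both models and 7.44% lower. Cd4 itself was at 0 in the IPF-LC depleted library, the cytokine genes Il4 and Il13 were at 0 in every library, and Zbtb7b, the factor that sets the CD4 lineage, had 28, 3, 24 and 27 counts. The part of other T cells in the sort in these ratios was not tested beyond these values.

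The 250 bases before the start of Foxp3 and of Il17f are shown, since these genes head the list and belong to the T cell programmes described. Both are RefSeq sequences of build GRCm38.p6, written 5′ to 3′ on the strand of the gene; Foxp3 has more than one listed start and the first was taken. Capitals mark matches to CCAAT, the box bound by NF-Y, to TTTGAA, the core of the CHR element of cell cycle genes, and to AGGTCA, a binding motif of ROR and other nuclear receptors, each on either strand.
Foxp3 promoter, chrX:7579426-7579675, plus strand: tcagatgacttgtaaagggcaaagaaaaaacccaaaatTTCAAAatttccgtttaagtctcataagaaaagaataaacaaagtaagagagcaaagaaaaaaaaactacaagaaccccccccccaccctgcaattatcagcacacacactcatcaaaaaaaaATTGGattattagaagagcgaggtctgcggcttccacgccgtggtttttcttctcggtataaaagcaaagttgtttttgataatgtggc
Il17f promoter, chr1:20784271-20784520, minus strand: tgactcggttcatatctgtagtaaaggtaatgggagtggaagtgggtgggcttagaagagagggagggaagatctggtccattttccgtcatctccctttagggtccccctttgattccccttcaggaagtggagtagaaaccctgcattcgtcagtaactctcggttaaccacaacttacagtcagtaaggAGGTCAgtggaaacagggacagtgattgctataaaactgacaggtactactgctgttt
The window of Il17f holds AGGTCA starting 58 bases before the start, and that of Foxp3 holds ATTGG, the reverse of CCAAT, 89 bases before it. AGGTCA was found in 10.8% of the windows of higher genes and 10.1% of those of all genes examined, so a match of this kind is common.

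Among the higher genes were a feedback inhibitor and a processing enzyme of the TGF-beta pathway. Smad7, an inhibitor of the TGF-beta receptor that the pathway itself induces, stood at 48.4 CPM in the IPF-LC isotype library, 141 in the IPF-LC depleted library, 40.9 in the LC isotype library and 86.8 in the LC depleted library. Furin, a protease that cleaves the TGF-beta precursor, stood at 21.8, 77.1, 34.9 and 82.2 CPM. Isotype and depleted values did not overlap for either gene, which within a model the rule requires. How many of all genes lack such overlap was not counted. Over all genes reaching a mean of 1 CPM 1.65% were higher in both models and 7.44% lower. Among the 27 measured genes of the TGF-beta list 3 were higher in both models, with Itgb8, and 4 were lower, and the median average ratio was 0.21. The lower ones included Tgfbr1, the type I receptor, at 51.1, 25.2, 81.0 and 35.5 CPM (ratios -1.02 and -1.19), and Tgfbi, a secreted matrix protein. Tgfbr2, the type II receptor, had ratios of 0.61 and 0.37, and the ligand gene Tgfb1 -0.15 and 0.14.

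Hey1, a transcriptional repressor induced by Notch, stood at 8.0 CPM in the IPF-LC isotype library, 34.6 in the IPF-LC depleted library, 7.25 in the LC isotype library and 38.4 in the LC depleted library. Its ratios of 2.11 (1.83 to 2.40) and 2.40 (2.11 to 2.71) were alike between the models. Lrig1, which restrains growth factor receptors, stood at 27.1, 111, 17.7 and 76.4 CPM. No other measured gene of the 25 in the Notch list was higher in both. Lower in both were 4, namely the receptors Notch3 and Notch4 and the ligands Dll1 and Dll4, and the median was -0.09. Of all genes reaching a mean of 1 CPM 1.65% were higher in both and 7.44% lower. Hes1, another Notch target, had 41, 39, 72 and 0 counts, and Dtx1 had ratios of -1.49 and -0.99.

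Of 57 measured proliferation genes 6 were higher in both models and 0 were lower in both. Of all genes reaching a mean of 1 CPM 1.65% were higher in both and 7.44% lower. Pclaf, a partner of the replication clamp PCNA, stood at 18.6 CPM in the IPF-LC isotype library, 53.7 in the IPF-LC depleted library, 44.0 in the LC isotype library and 118 in the LC depleted library. Ccna2, the cyclin of S phase and G2, stood at 8.45, 22.6, 18.4 and 57.6 CPM, and Ccnb1, the mitotic cyclin, at 2.43, 6.74, 9.58 and 24.3 CPM. For Ccnb1 the isotype LC value exceeded the depleted IPF-LC value, so only the ratios within a model are alike, at 1.46 (0.92 to 2.05) and 1.34 (1.07 to 1.63).

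Ccne2, the cyclin of the G1 to S transition, had ratios of 1.62 and 1.15, and Foxm1, the transcription factor of mitotic genes, 1.11 and 1.91. The mitotic kinesin genes Kif4 and Kif15, outside the list, had ratios of 2.74 and 1.29 and of 1.75 and 1.95. Kif4 stood at 3.52, 23.7, 10.7 and 26.2 CPM. The sixth gene of the list higher in both was E2f8, an atypical E2F factor with 21, 73, 21 and 166 counts. The list's median ratio was 0.52 in IPF-LC and 0.73 in LC, and most of its genes did not reach 2-fold in both: Mki67 had 0.73 and 1.46, and Top2a 0.27 and 1.07.

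Promoter windows of cell cycle genes are shown because cell cycle promoters are known for CCAAT boxes and CHR elements. They are the 4 of the 7 proliferation and kinesin members with an entry in the RefSeq table, in build GRCm38.p6, with capitals as above.
Ccnb1 promoter, chr13:100786487-100786736, minus strand: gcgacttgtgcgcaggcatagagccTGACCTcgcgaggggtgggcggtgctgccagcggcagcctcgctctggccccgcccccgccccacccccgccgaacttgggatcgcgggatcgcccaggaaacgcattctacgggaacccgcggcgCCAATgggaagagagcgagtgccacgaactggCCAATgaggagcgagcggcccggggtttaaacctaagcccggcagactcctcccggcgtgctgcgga
Pclaf promoter, chr9:65890073-65890322, plus strand: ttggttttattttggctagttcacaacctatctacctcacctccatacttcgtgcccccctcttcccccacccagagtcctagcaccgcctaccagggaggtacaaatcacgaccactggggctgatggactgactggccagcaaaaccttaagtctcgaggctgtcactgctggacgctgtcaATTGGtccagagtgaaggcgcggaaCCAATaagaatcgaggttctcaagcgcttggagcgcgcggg
Kif4 promoter, chrX:100625815-100626064, plus strand: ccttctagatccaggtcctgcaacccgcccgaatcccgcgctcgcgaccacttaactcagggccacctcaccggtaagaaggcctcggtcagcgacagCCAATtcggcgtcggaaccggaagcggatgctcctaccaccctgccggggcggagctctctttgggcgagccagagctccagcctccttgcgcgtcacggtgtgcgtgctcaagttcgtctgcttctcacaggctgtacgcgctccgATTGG
Kif15 promoter, chr9:122950831-122951080, plus strand: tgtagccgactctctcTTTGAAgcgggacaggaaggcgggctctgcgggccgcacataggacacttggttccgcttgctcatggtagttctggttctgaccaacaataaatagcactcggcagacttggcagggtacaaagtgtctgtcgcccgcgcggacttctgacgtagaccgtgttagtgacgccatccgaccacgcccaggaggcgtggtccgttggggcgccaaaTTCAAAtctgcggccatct
Ccnb1 holds CCAAT at 99 and at 67 bases before its start, Pclaf holds the box at 66 and 41 bases, and Kif4 at 152 and 5. Kif15 holds TTTGAA or its reverse TTCAAA at 234 and 19 bases and no match to the box. CCAAT was held by 27 of 35 windows of the proliferation genes with a mean of 10 CPM or more (77.1%), 17 of 37 windows of higher genes (45.9%), 63 of 180 of lower genes (35.0%) and 2507 of 6745 of all genes examined (37.2%). TTTGAA was found in 13.5% of the windows of higher genes and 10.5% of all. A match is a string of letters and not a measured site.

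The other 36 higher genes belonged to none of the lists and had varied roles. Zdhhc2, an enzyme that attaches palmitate to proteins, stood at 5.44 CPM in the IPF-LC isotype library, 27.1 in the IPF-LC depleted library, 10.7 in the LC isotype library and 48.0 in the LC depleted library. S100a4, a calcium-binding protein of motile and memory T cells, stood at 4.99, 14.4, 8.02 and 23.9 CPM. Tex2, a protein of lipid transfer, had like ratios in the models, 1.48 (1.38 to 1.59) and 1.51 (1.41 to 1.61), from 63.6 and 65.7 CPM with isotype. In all 3 genes the depleted values lay above both isotype values, which within a model the rule requires. The share of all genes for which this holds was not counted.

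Synj2, a phosphoinositide phosphatase, had ratios of 1.49 and 2.04, Otulin, a deubiquitinase of linear ubiquitin, 1.32 and 2.03, and Alyref, an mRNA export factor, 1.36 and 1.93. Mark3, a kinase, had 1.46 and 1.40, Tmem65, a mitochondrial membrane protein, 1.79 and 1.45, and Lrrc47 1.31 and 1.83. Ulbp1, a stress ligand of the receptor NKG2D, had 1.55 and 1.39 in counts, but its deposited TPM were 5.41 and 5.29 in IPF-LC, so on that scale it differed only in LC (3.78 and 14.9). On the per-length TPM scale Tle5, a co-repressor, had the highest mean level of the 51, at 224 TPM. Xlr3b belongs to a family of near-identical copies and Gm19557 is annotated as an antisense RNA; the strand used in counting is not given, so both values are uncertain.

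The genes nearest the limit were close in value. Mpzl3 (1.08 and 1.01) and Mknk2 (1.13 and 1.03) lay just inside on the higher side, and Tmem64 (0.999 and 1.24) and Pi4k2a (1.55 and 0.998) just outside. On the lower side Stap1 (-1.002 and -1.01) and Hexa (-1.004 and -1.06) lay just inside, and Acer2 (-1.27 and -0.998) and Ppp1r12b (-1.15 and -0.996) just outside.

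The 234 lower genes had larger ratios in LC than in IPF-LC. Their summed level was 11450 CPM in the IPF-LC isotype library, 3658 in the IPF-LC depleted library, 19258 in the LC isotype library and 1872 in the LC depleted library, or 1.16, 0.352, 1.99 and 0.186% of all counts. The sum was 3.13-fold lower after depletion in IPF-LC and 10.3-fold lower in LC. The median ratio was -1.79 in IPF-LC and -4.26 in LC, and 202 of the genes had the larger ratio in LC. Both ends differed between the models: 186 had the higher isotype level in LC, and 163 the higher depleted level in IPF-LC.

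By the rule a lower gene could not be at 0 in an isotype library. Of the 234 genes 11 were at 0 in the IPF-LC depleted library and 36 in the LC depleted library. For 29 genes the LC isotype library was the only one with 10 CPM or more, so these passed the filter through the library where they were high and had to differ in LC. The counting interval lay wholly beyond 2-fold in both models for 176 genes, and both ratios passed 4-fold for 88. Here too the same counts chose the genes. Counts that were not whole occurred for 28 of them (12.0%). Of the 234, 51 belonged to a marker list of another cell type and 166 to no list.

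**Figure D3:**
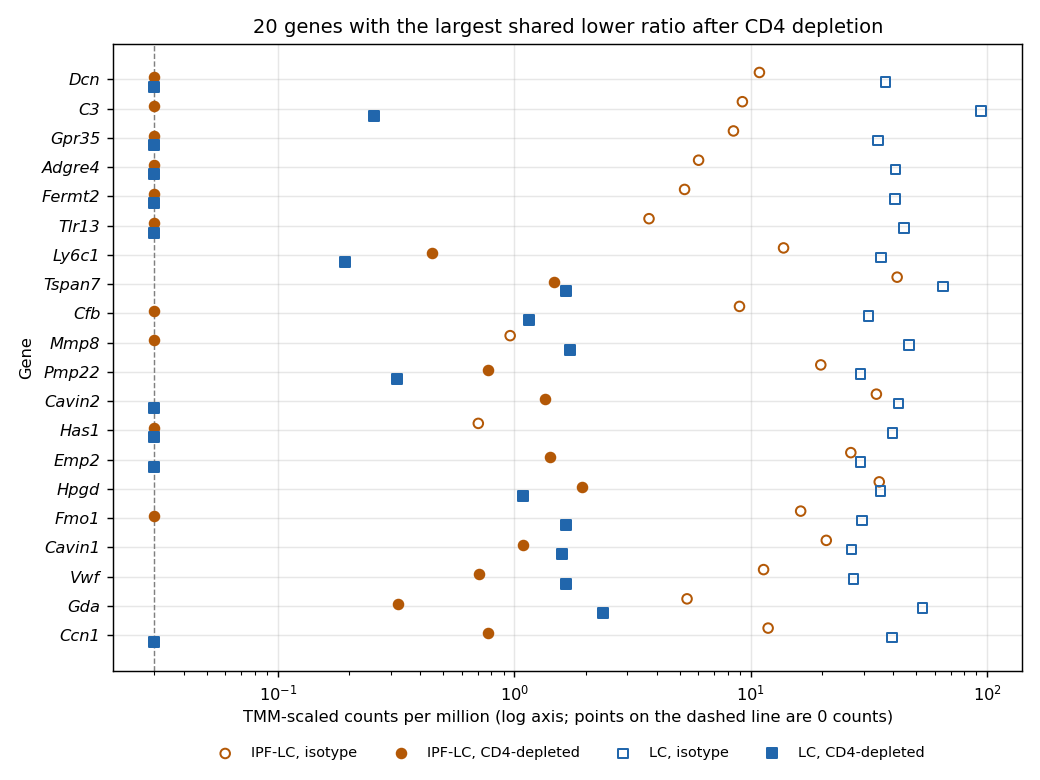
TMM-scaled CPM (log axis) in each of the 4 libraries for the 20 lower genes with the largest shared lower ratio; points on the dashed line are 0 counts. Isotype values lie to the right of the depleted values of the same model in each row, as the rule requires. The isotype LC value is the highest of the 4 for each of these 20 genes.

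The largest shared lower ratios belonged to genes of stroma, myeloid cells and endothelium. Dcn, the matrix proteoglycan decorin made by fibroblasts, stood at 10.9 CPM in the IPF-LC isotype library and 37.2 in the LC isotype library and was at 0 in both depleted libraries, at least 56.5-fold and at least 194-fold lower. C3, the central complement protein, stood at 9.21, 0, 94.2 and 0.255 CPM. Gpr35 and Adgre4, receptors of myeloid cells, Fermt2, an integrin adaptor of adherent cells, Tlr13, a sensor of bacterial RNA, and Has1, a hyaluronan synthase, were likewise at 0 after depletion in both models. Has1 rested on 11 counts in the IPF-LC isotype library and Mmp8, a neutrophil collagenase, on 15, so these IPF-LC values carry little depth.

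Macrophage and monocyte genes formed the largest group. Lyz2, the lysozyme of myeloid cells, stood at 2408 CPM in the IPF-LC isotype library, 788 in the IPF-LC depleted library, 2089 in the LC isotype library and 33.4 in the LC depleted library, and was the most abundant lower gene. Chil3, a chitinase-like protein of alveolar macrophages, stood at 229, 61.0, 1507 and 9.06 CPM. Csf1r, the receptor that keeps macrophages alive, stood at 40.1, 4.56, 148 and 0.128 CPM, although some of its counts were not whole. The isotype libraries were high and the LC depleted library lowest for each, with the IPF-LC depleted library between.

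Of the 29 measured markers of this list 25 were at least 2-fold lower in both models and 0 higher, with a median average ratio of -4.19, or -3.51 with undetected genes at the floor. Over all genes reaching a mean of 1 CPM 7.44% were lower in both. Clec7a, the receptor dectin-1 for fungal glucan, stood at 73.1, 12.8, 116 and 0 CPM. In a group chosen after its values were seen, of 15 tyrosine kinases and signal proteins of myeloid cells 13 were lower in both, among them the kinase gene Syk (19.9, 2.63, 88.3 and 0 CPM) and Spi1 (9.98, 2.76, 60.4 and 0.383 CPM), which encodes the master factor PU.1. Ptpn6, the phosphatase SHP-1 that T cells also use, stood at 183, 49.5, 258 and 79.0 CPM, and its ratios of -1.88 (-2.00 to -1.77) and -1.70 (-1.80 to -1.61) were alike between the models, unlike those of Syk and Spi1.

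The windows of C1qc, a chain of the complement protein C1q made by macrophages, and Mmp12, the macrophage elastase, are shown as lower genes that hold GAGGAAGT or its reverse ACTTCCTC, a form of the PU.1 site. They were chosen because they hold it. Capitals also mark AGGTCA.
C1qc promoter, chr4:136892915-136893164, minus strand: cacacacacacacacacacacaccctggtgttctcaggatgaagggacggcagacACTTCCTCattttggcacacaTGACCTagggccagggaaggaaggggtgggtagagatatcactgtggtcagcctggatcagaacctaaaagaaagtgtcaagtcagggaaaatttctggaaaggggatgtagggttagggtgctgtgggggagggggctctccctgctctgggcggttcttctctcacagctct
Mmp12 promoter, chr9:7344147-7344396, plus strand: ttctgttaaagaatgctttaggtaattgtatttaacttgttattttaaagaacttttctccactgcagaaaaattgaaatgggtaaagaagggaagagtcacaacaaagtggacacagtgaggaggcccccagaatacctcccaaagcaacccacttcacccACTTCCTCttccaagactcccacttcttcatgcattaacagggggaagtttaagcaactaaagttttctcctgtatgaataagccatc
The match lies 195 bases before the start of C1qc and 88 bases before that of Mmp12. It was found in 10 of 180 windows of lower genes (5.56%), in 0 of 37 of higher genes and in 184 of 6745 of all genes examined (2.73%). C1qc stood at 15.9, 1.73, 29.6 and 0.0638 CPM over the 4 libraries, and Mmp12 at 97.7, 24.7, 62.6 and 0 CPM. Mmp12 was one of the lower genes with the higher isotype level in IPF-LC.

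Genes of innate inflammation went with the macrophage markers. Il1b, an inflammatory cytokine, stood at 98.9 CPM in the IPF-LC isotype library, 21.1 in the IPF-LC depleted library, 54.2 in the LC isotype library and 2.30 in the LC depleted library. Il1a had a ratio of -1.05 in IPF-LC and was at least 213-fold lower in LC, and the receptor antagonist gene Il1rn had -1.65 and -5.29. All 4 measured genes of the interleukin-1 family, a group chosen after its values were seen, were lower in both, as were 12 of 21 chemokine ligand genes, a group chosen in the same way. Ccl6, a macrophage chemokine, stood at 294, 89.0, 308 and 3.06 CPM, and Ccl2, which draws monocytes, at 7.10, 1.22, 41.0 and 0 CPM. Of 15 complement genes 12 were lower in both, and of 7 Fc receptor genes 6 were, both groups again chosen after their values were seen. The share over all genes reaching a mean of 1 CPM was 7.44%.

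Antigen presentation genes of MHC class II were lower as well. H2-Ab1 stood at 77.2 CPM in the IPF-LC isotype library, 30.2 in the IPF-LC depleted library, 238 in the LC isotype library and 23.0 in the LC depleted library, and Cd74, the invariant chain, at 296, 124, 723 and 144 CPM. The ratios were -1.03 and -3.38 for H2-Aa, IPF-LC first, and -1.54 and -3.60 for H2-Eb1. Of 12 measured genes of the dendritic cell and MHC class II list 7 were lower in both, against 7.44% of all genes at that level. Of 15 neutrophil markers 7 were lower in both, with a median ratio of 0.00 in IPF-LC and -5.09 in LC, and 9 of the 20 listed were at 0 in the IPF-LC isotype library.

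Endothelial genes were near 0 in both depleted libraries in many cases. Tspan7, a membrane protein of lung endothelium, stood at 41.6 CPM in the IPF-LC isotype library, 1.48 in the IPF-LC depleted library, 65.0 in the LC isotype library and 1.66 in the LC depleted library. Vwf, the clotting factor of endothelium, had ratios of -3.94 and -4.01, and Kdr, the VEGF receptor, stood at 25.2, 0, 39.6 and 3.76 CPM. Of 28 markers 25 were lower in both, with a median of -3.23 in IPF-LC and -4.66 in LC. Over all genes reaching a mean of 1 CPM 7.44% were lower in both. All 5 measured genes of the caveola coat, chosen after their values were seen, were lower in both: the IPF-LC ratio was -4.22 for Cavin1, -4.62 for Cavin2, -1.30 for Cav1 and -1.95 for Cav2.

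Fibroblast and matrix genes included the neighbouring collagen genes Col4a1 and Col4a2, which encode basement membrane chains. Col4a1 stood at 40.2 CPM in the IPF-LC isotype library, 4.04 in the IPF-LC depleted library, 47.3 in the LC isotype library and 0.766 in the LC depleted library. Fn1, fibronectin, stood at 170, 43.8, 234 and 8.17 CPM, and Thbs1, thrombospondin, at 46.7, 11.9, 662 and 14.9 CPM, so that the LC isotype library alone was high for Thbs1. Of 31 measured markers of the list 23 were lower in both, with a median of -3.72 (-3.37 at the floor). One lung epithelial gene, Napsa, the aspartic protease of alveolar type II cells, was among the 234, and 8 of 12 measured epithelial markers were lower in both. The share lower in both over all genes reaching a mean of 1 CPM was 7.44%.

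Summed markers of macrophages, endothelium, fibroblasts, dendritic cells and neutrophils were lower after depletion in both models. Many of these markers are themselves among the 234 genes, so the rule fixed part of this. They number 19 of the macrophage list, 14 of the endothelial, 8 of the fibroblast, 5 of the dendritic cell and 2 of the neutrophil list. The 30 macrophage markers summed to 5412 CPM in the IPF-LC isotype library, 2031 in the IPF-LC depleted library, 6070 in the LC isotype library and 252 in the LC depleted library. Endothelial markers summed to 643, 244, 929 and 212 CPM, fibroblast markers to 553, 165, 1193 and 145, dendritic cell and MHC class II genes to 557, 255, 1302 and 237, and neutrophil markers to 131, 51.9, 468 and 17.5. At 0 were 6 of the 30 macrophage markers in the IPF-LC depleted library, Fcgr1 and Siglecf among them, and 11 in the LC depleted library, Adgre1, C1qa and Marco among them. With isotype 1 was at 0 in IPF-LC, namely Marco, and 0 in LC. Of 28 endothelial markers 5 and 8 were at 0 in the IPF-LC and LC depleted libraries, and 0 in either isotype library. Kdr and Emcn were among the first, Tie1 and Emcn among the second. The sums of B cell markers (542, 349, 448 and 375 CPM) and natural killer markers (716, 802, 947 and 733 CPM) were closer between libraries. Of the 16 measured natural killer markers, however, 5 were lower in both models and 2 higher, with a median average ratio of -0.98. For the 14 measured B cell markers these values were 2, 0 and -0.63. Over all genes reaching a mean of 1 CPM 1.65% were higher in both and 7.44% lower. The mast cell, basophil and platelet list had a higher sum after depletion in both models, at 64.2, 86.9, 50.2 and 89.8 CPM. Only 6 of its 20 genes were measured, however, and of these 4 were lower in both models and 0 higher in both. In the LC depleted library 17 of the 20 were at 0. The part of these cells in the lower genes, and of their smaller share in the higher genes, was not tested.

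**Figure D4:**
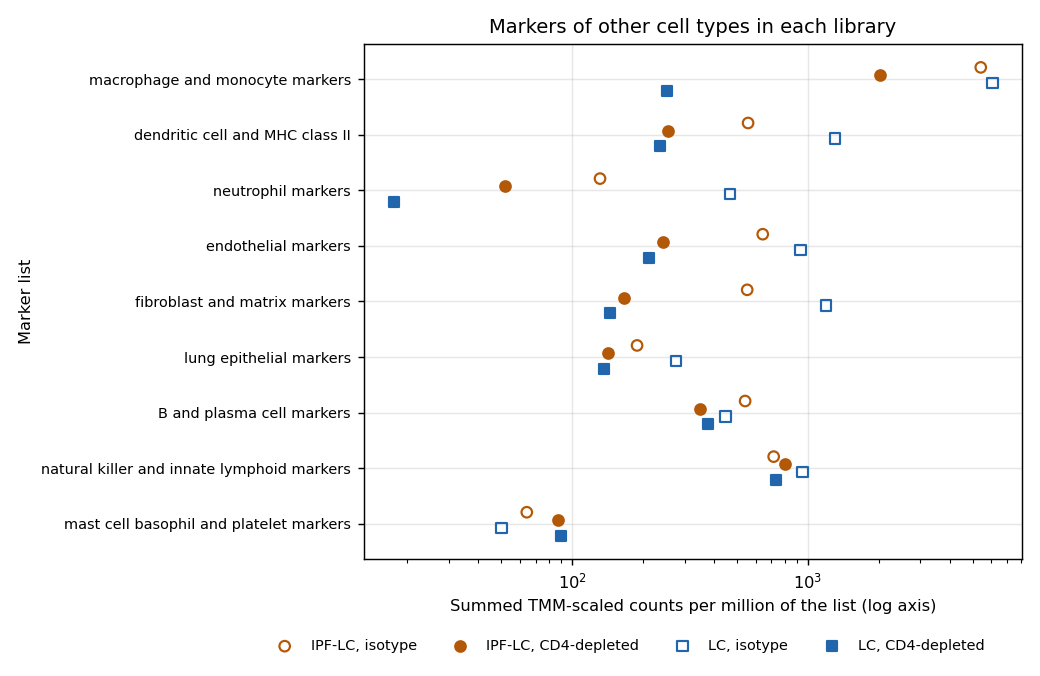
Summed TMM-scaled CPM (log axis) of 9 marker lists of other cell types in each of the 4 libraries. Open isotype symbols lie to the right of the filled depleted symbol of the same model for macrophage, dendritic cell, neutrophil, endothelial, fibroblast, epithelial and B cell lists, and the macrophage sum is 252 CPM in the LC depleted library against 6070 CPM with isotype.

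Some lower genes are used by T cells themselves. Interferon response genes were among them. Slfn5, which encodes a schlafen protein induced by interferon, stood at 53.5 CPM in the IPF-LC isotype library, 10.7 in the IPF-LC depleted library, 68.9 in the LC isotype library and 21.9 in the LC depleted library. Cmpk2, a mitochondrial kinase induced by interferon, stood at 36.0, 10.7, 43.4 and 13.2 CPM, and Usp18, which switches the receptor off, at 40.4, 15.6, 50.9 and 16.2 CPM. The ratios were -2.32 (-2.58 to -2.09) and -1.65 (-1.83 to -1.47) for Slfn5, -1.75 (-2.01 to -1.5) and -1.71 (-1.95 to -1.49) for Cmpk2, and -1.37 and -1.65 for Usp18. Oasl2 (-1.12 and -2.06) and Ifi207 (-1.54 and -5.17) were the other type I interferon genes among the 234. Of the list, 11 genes were lower in IPF-LC and 24 in LC. Over all genes reaching a mean of 1 CPM the shares were 13.6% and 15.4%, and 7.44% were lower in both. Of 46 measured genes of that list 9 were lower in both and 0 higher, with a median of -0.97, and Isg15 lay near the limit at -0.95 and -1.02. Of the interferon gamma list Irf8, a factor of myeloid and T cells (-1.13 and -3.58), and Irgm2, an immunity-related GTPase (-1.13 and -1.14), were among the 234. Macrophages express these genes too, and their summed markers were lower after depletion in both models, more so in LC. The part of macrophage RNA in these ratios was not tested.

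Of the cytotoxic effector list, Tnfsf10 and Tnf were among the lower genes. Tnfsf10, which encodes TRAIL, stood at 14.1 CPM in the IPF-LC isotype library, 3.34 in the IPF-LC depleted library, 25.6 in the LC isotype library and 5.87 in the LC depleted library, with ratios of -2.07 (-2.54 to -1.64) and -2.12 (-2.47 to -1.80). Tnf, the inflammatory cytokine, stood at 9.21, 3.02, 20.6 and 7.46 CPM, ratios of -1.60 and -1.46. These were the 2 of 20 cytotoxic effector genes lower in both, a share near the 7.44% of all genes at that level, and 0 were higher in both; Gzmb, granzyme B, went opposite ways, at 1.01 and -0.82. Itga1, the collagen-binding integrin chain of resident T cells, had ratios of -1.42 and -4.16. Fos, an immediate early factor, stood at 392, 190, 461 and 207 CPM, and Ier3, an early stress gene, had ratios of -3.07 and -4.45.

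A few surface receptor genes of lymphocytes were among the lower genes. Klra7, a Ly49 receptor of natural killer and memory CD8 cells, stood at 27.4 CPM in the IPF-LC isotype library, 12.4 in the IPF-LC depleted library, 16.3 in the LC isotype library and 5.68 in the LC depleted library. Klrb1c, the NK1.1 antigen, had ratios of -1.04 and -1.72, and Trgc2, a constant segment of the gamma receptor chain, -1.28 and -1.88. Ly6c1, a surface antigen of endothelium and of memory CD8 cells, had 215, 7, 548 and 3 counts, part of them shared with other genes of its family. Isotype and depleted values did not overlap for any of these 4 genes, which within a model the rule requires. The share of all genes without such overlap was not counted.

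Other lists held few shared genes or none. The CD8 identity and the glycolysis lists had 0 genes higher and 0 lower in both, with medians of 0.06 and 0.05, as did the 15 mitochondrially encoded genes at 0.00. Of 20 inhibitory receptor genes, 9 passed 2-fold upward in IPF-LC while 8 passed it downward in LC, so that Ctla4 alone was higher in both. The heat shock list had 1 of 24 lower in both, and the immediate early list 2 of 26, against 7.44% of all genes at that level.

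**Figure D5:**
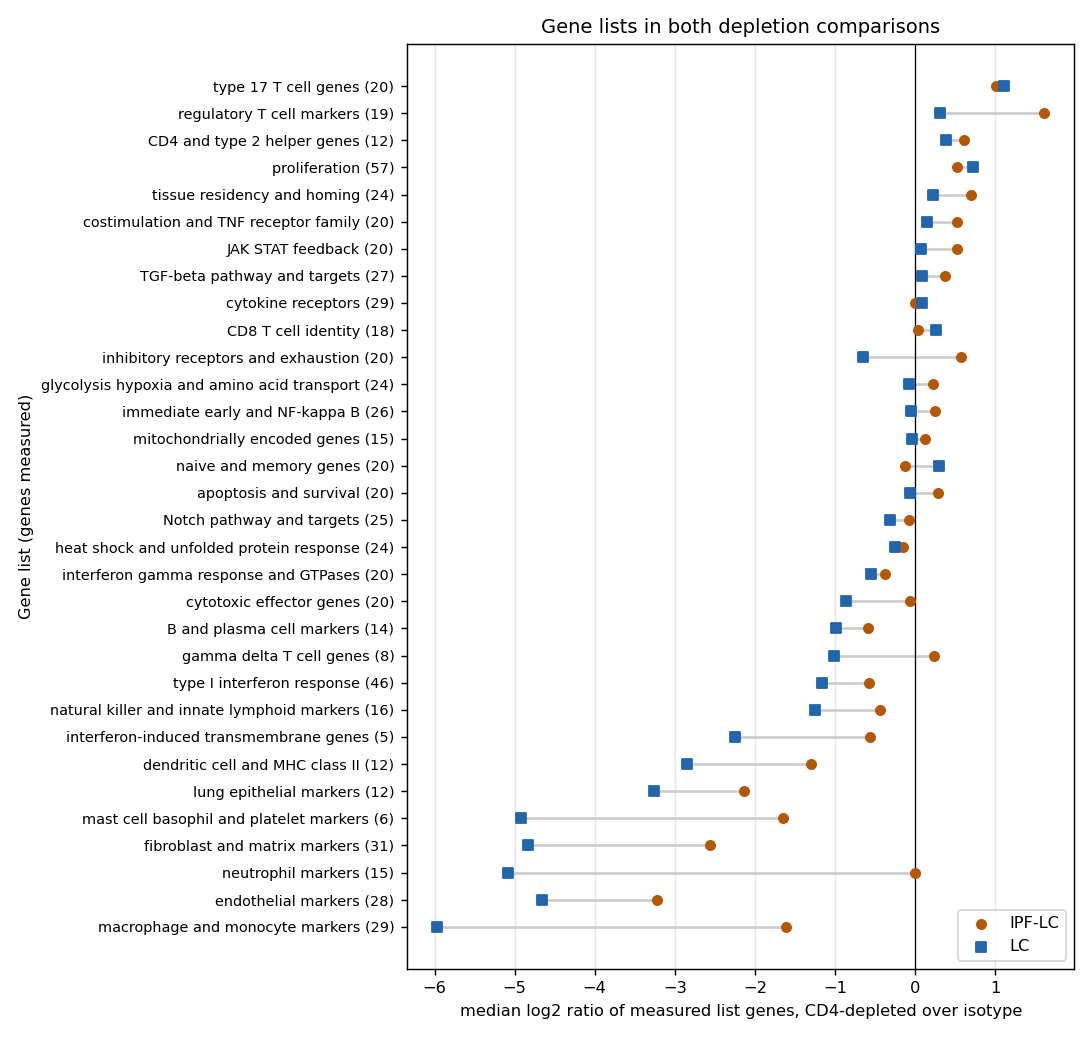
Median log2 ratio of CD4-depleted over isotype for the measured genes of each of 32 gene lists, with IPF-LC as circles and LC as squares. Type 17 genes lie near 1 in both models and proliferation genes at 0.52 and 0.73, while macrophage markers lie lowest in LC, at -5.96, and endothelial markers lowest in IPF-LC, at -3.23; medians of lists with undetected genes depend on the prior count.

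Lower genes were also found side by side in the genome. Of 282 members placed in the RefSeq order of protein-coding genes of GRCm38.p6, 28 lay next to another member in that order, in 15 pairs. In every pair both genes were lower. The share of such neighbours over all genes examined was not counted. These were pairs of related genes for the most part, such as Ccl9 with Ccl6, H2-Ab1 with H2-Aa and H2-Aa with H2-Eb1, Il1a with Il1b, C1qb with C1qc, Cxcl1 with Cxcl2, Cav2 with Cav1 and Itgam with Itgax. The models of Col4a1 and Col4a2 overlap, and without a stated counting strand reads in the overlap cannot be assigned. No pair of higher genes was found, but only 51 of the 285 members were higher.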

How the data were processed

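RNA of sorted lung cells was measured in 4 libraries, 1 for each model and antibody. Per the labels' protocols, libraries were made with a NEBNext kit from cDNA of a SMART-Seq kit for low input. Tools named in the submitters' processing notes, without their roles, are RSEM 1.3.3, STAR 2.7.11a, fastp 0.23.4 and MultiQC 1.25.2, with build GRCm39; the annotation release and the counting strand are not given in the sources used here. The authors deposited 1 table per library with expected counts, estimated reads per gene that are not normalised, and with TPM, which the authors scaled to the same sum in each library. The deposited FPKM were not used here.

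Expected counts were rounded and scaled by TMM (edgeR 4.0.16), and log2 ratios of CPM were formed with a prior count of 0.5. Intervals are exact conditional binomial 95% intervals of Clopper-Pearson type. Where a library had 0 counts, a fold is given against a floor of 3 counts per library. The additive edgeR model used genes passing filterByExpr, two-sided; DESeq2 1.42.0, limma-voom (limma 3.58.1), other scalings, filters, prior counts and TPM (pseudocount 0.1) were alternatives. The ratio and test code was tested on simulated data. Promoter windows of 250 bases and the gene order come from RefSeq for GRCm38.p6, while the files use GRCm39, so they were joined by symbol. Gene types come from GENCODE M21.

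The members, the 32 lists and the rules were chosen with earlier results of these data known, and the families named as such after their values were seen. Genes named by rule are the 20 higher and the 20 lower with the largest smaller ratio, members of lists, Foxp3, Il17f, Ctla4, Smad7, Furin, Hey1, Lrig1, Cd4, Cd8a and Cd8b1, those at the limit, and list genes of large ratio. Further genes, such as Kif4, Ulbp1 by TPM, Tle5, Xlr3b, Gm19557, Spi1, Syk, Mmp12, Il1a, Il1rn, Ccl6, Ccl2, Thbs1, Cav2, Trgc2 and the T cell genes given for contrast, were picked after their values were seen. Results for a few genes are not reported here.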

Additional observations from a re-analysis of the deposited data

Results flagged for a closer look

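Cd8b1, which encodes the beta chain of the CD8 coreceptor, moved in opposite directions after depletion in the 2 models, with a log2 ratio of -0.57 (-0.61 to -0.54) in IPF-LC and 0.26 (0.22 to 0.29) in LC. The difference between the models was not tested, since each rests on a pair of single libraries. Neither ratio reached 2-fold, so Cd8b1 is not among the 285 genes.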

How the results depend on the processing

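The counts of 51 higher and 234 lower genes moved with the filter more than with the scaling. Above a mean of 50 CPM they were 20 and 26, so the excess of lower genes nearly disappeared; with at least 1 CPM they were 202 and 910, and with no filter 641 and 1613. At 4-fold they were 6 and 88, with the average ratio alone at 2-fold 146 and 374, and with whole counting intervals beyond 2-fold 29 higher. Total counts (46 and 254), DESeq2 size factors (50 and 238), a prior count of 5 (50 and 229), TPM (41 and 186), and at least 10 CPM in each model (47 and 160) stayed within 1.5 times. Of the genes, total counts kept 46 of the higher and 234 of the lower ones, and TPM, with its own filter of 10 TPM, 32 and 135. The additive model's 0 and 0 became 39 and 95 with the filter of 10 CPM and 100 and 380 with DESeq2. Average ratios of 111 named genes did not reverse under total counts, TPM or a prior count of 5, and 32 moved beyond counting error under TPM. All of these genes but Cd4, Cd8a and Cd8b1 had ratios of at least 2-fold in both models by choice, which left little room for a reversal. No paired analysis was possible because no group has replicate numbers, beyond the additive model, which compares the antibodies within each model, and leaving out a library leaves a model without its comparison. Few counts in 1 library of a pair limit the precision of a ratio: the isotype one for higher genes such as Foxp3 and Il17f, the depleted one for many lower genes.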
